A study of Rattus norvegicus with 60 samples.

Results

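Gene expression in frontal cortex was compared between congenic and NP rats on 12 Affymetrix rat arrays, 6 from each line, out of 60 arrays in the whole series. The arrays were chosen by their label alone, frontal cortex, and all 12 were used. Congenic rats carried the animal numbers 1, 2, 3, 4, 9 and 10, and NP rats the numbers 5, 6, 7, 8, 11 and 12. Each animal also gave an array of accumbens, amygdala, hippocampus and striatum. NP is a rat line selected for low alcohol preference. The congenic line is NP.P, in which part of chromosome 4 comes from the alcohol-preferring P line and the remainder of the genome from NP. This makeup is knowledge of the study and is not stated in the labels. Per the labels' protocols, all rats were adult, had water and chow without restriction, were housed in pairs and were handled daily before decapitation. No alcohol or drug is named for either line. Sources used here give neither the sex, nor a more exact age, nor the extent of the transferred segment. The title of the series names the search for candidate genes for alcohol preference as the purpose of comparing these lines.

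Frontal cortex is built of layers of excitatory projection neurons and local inhibitory interneurons, with astrocytes, oligodendrocytes, microglia and vessels between them. It takes part in decisions about reward and in the control of drinking. In a congenic line a segment of a donor genome is bred onto another line, so that the lines should differ in sequence at that segment and little elsewhere. An array measures each transcript with a probe set, a group of short oligonucleotides, and gives its level on a log2 scale on which a difference of 1 is a doubling. Levels of different probe sets cannot be compared with each other. All differences below are congenic minus NP, so that a negative value means a lower signal in congenic rats.

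All 12 arrays resembled the frontal cortex profile more than that of any other region. Their median log2 values lay between 8.27 and 8.34 in congenic rats and between 8.28 and 8.30 in NP rats. In the whole series 7 of the 60 arrays did not resemble their labelled region well, and 0 of these were from frontal cortex. Among them, the amygdala and hippocampus arrays of congenic 3 each resembled the other's region best. So did the accumbens and hippocampus arrays of NP 8. Whether these labels were exchanged was not tested, and all 7 were kept under their labelled region unless stated. The median correlation of an array with the others of the region was lowest on the arrays of congenic 2 (0.985), congenic 10 and congenic 1, and lay between 0.993 and 0.995 on the NP arrays. The 3' signal of the actin control exceeded its 5' signal, a measure of RNA integrity, by 0.99 to 1.23 log2 units in congenic rats and by 1.03 to 1.14 in NP rats. Among the 7 arrays, the accumbens array of congenic 9 and the hippocampus array of NP 11 resembled their own region best. Their actin excess was 1.51 and 1.46. For the GAPDH control it was 4.56 and 0.51, against values between -0.10 and 0.15 on the frontal cortex arrays. Markers of cortical excitatory neurons averaged a median of 10.59 log2 units on the frontal cortex arrays, against 10.74 in striatum, 10.18 in accumbens, 10.27 in amygdala and 10.31 in hippocampus, so this list did not set frontal cortex above striatum. The list for medium spiny neurons, which send the output of the striatum, averaged 9.90 in frontal cortex, against 12.37 in striatum. Markers of hippocampal neurons averaged 9.43 in frontal cortex, against 10.69 in hippocampus. Precision was limited by having 6 animals in each line, and p-values measure the spread between these animals.

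Of 18625 probe sets with signal, 10 differed between congenic and NP frontal cortex at an adjusted p under 0.05 in limma, a linear model with moderated variances (0.0537% of those tested). In congenic rats 4 rose (0.0215%) and 6 fell (0.0322%). The 10 probe sets comprise 2 for Ppm1k, 1 each for Akr1b1, Snx10 and Tpm3, and 5 that carry no single gene name in the table used. Ppm1k, Akr1b1 and Snx10 lie on chromosome 4 and Tpm3 on chromosome 2. Across all 18625 probe sets the median difference was 0.015 log2 units, and 3 differed by more than 1 unit. At an unadjusted p under 0.05 there were 1188 probe sets (6.38%), 596 higher (3.2%) and 592 lower (3.18%). The 6 congenic animals and the 6 NP animals did not overlap in 70 probe sets (0.376%), with congenic above NP in 43 of them (0.231%) and below in 27 (0.145%). The exact permutation test over all divisions of the 12 animals into 6 and 6 was run on the called probe sets other than 1383058_at. It gave each a 2-sided p of 0.00216, the smallest it can give. Every probe set without overlap between the lines gets this value, so it adds nothing to the lack of overlap.

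**Figure D1:**
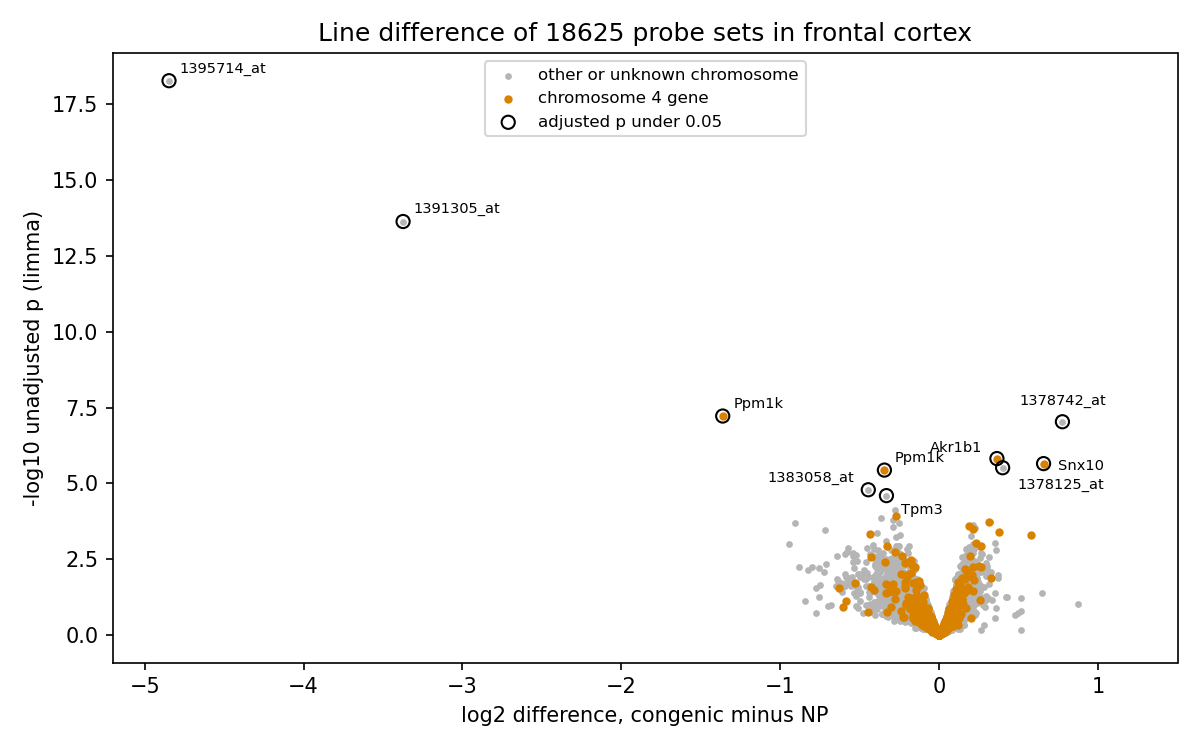
Each point is 1 of 18625 probe sets on the 12 frontal cortex arrays, with the log2 difference (congenic minus NP) on the horizontal axis and the negative log10 of the unadjusted limma p on the vertical axis. Orange points are chromosome 4 genes and black rings mark the 10 probe sets with an adjusted p under 0.05. Apart from 1395714_at, 1391305_at and a Ppm1k probe set, all differences lie within 1 log2 unit of 0.

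Ppm1k showed the largest difference of any named gene. It encodes a phosphatase of the mitochondrial matrix that removes a phosphate from the branched-chain ketoacid dehydrogenase and so switches on the breakdown of leucine, isoleucine and valine. By probe set 1394939_at the lowest, median and highest log2 values were 7.23, 8.01 and 8.26 in congenic rats, against 9.17, 9.32 and 9.41 in NP rats. The highest congenic animal lay below the lowest NP animal, and congenic 2 was the lowest of all. The mean was 7.94 ± 0.38 in congenic and 9.30 ± 0.09 in NP rats (SD, n = 6 each), a difference of -1.36 ± 0.14 (SE, 2.57-fold lower, limma adjusted p = 3.74e-04). The other Ppm1k probe set, 1388778_at, moved the same way but less. It read 10.71, 10.78 and 10.91 in congenic rats, against 11.06, 11.13 and 11.22 in NP rats, again without overlap, with a difference of -0.34 ± 0.05 (1.27-fold lower, limma adjusted p = 0.00851). Once every region's arrays were fitted together, with each rat's 5 arrays as a block, this second call ended (adjusted p = 0.410) and that of 1394939_at did not. That fit took its spread from all regions, arrays that did not resemble their labelled region included. The probe sets of Ppm1k thus shared the direction and not the size of the difference.

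The enzymes on which Ppm1k acts, and those that follow, did not differ in this way. Of 25 measured genes of branched-chain amino acid breakdown, 1 was called (Ppm1k), against 0.0193% of the 10378 named genes, each taken at its brightest probe set. At an unadjusted p under 0.05 there were 0 of the 25 with congenic higher and 2 (8%) with congenic lower, against 3.49% and 1.41% of all named genes. The second was Hibadh, a valine-pathway dehydrogenase of chromosome 4, at -0.13 ± 0.05 (limma adjusted p = 0.721). Bckdk, the kinase that opposes Ppm1k, differed by 0.06 ± 0.07. The subunits Bckdha and Bckdhb of the dehydrogenase differed by 0.08 ± 0.06 and -0.0037 ± 0.047. The median difference of the 25 genes was 0.016, beside 0.023 over all named genes.

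Akr1b1 rose in congenic rats. It encodes aldose reductase, which reduces glucose to sorbitol and also takes aldehydes as substrates. The lowest, median and highest values were 11.64, 11.78 and 11.85 in congenic rats, against 11.32, 11.38 and 11.48 in NP rats. No animal of either line entered the range of the other. The means were 11.75 ± 0.07 in congenic and 11.39 ± 0.06 in NP rats (SD, n = 6 each), a difference of 0.36 ± 0.05 (SE, 1.29-fold, limma adjusted p = 0.00568). Its neighbour in the measured gene order, Akr1b10, a reductase of the same family, had a difference of the opposite sign that did not pass the test (-0.22 ± 0.09, limma adjusted p = 0.737). Among 15 measured genes of ethanol and aldehyde metabolism, Akr1b1 alone was called. Aldh5a1, which oxidises succinic semialdehyde from GABA, differed by 0.11 ± 0.05 at its brighter probe set, and Cat, the peroxide-degrading catalase, by -0.18 ± 0.07. These 4 genes (26.7% of the list) had an unadjusted p under 0.05, against 4.89% of all named genes. Of 23 measured polyol and glutathione enzymes, 2 reached that level, Gstm4 with 0.11 ± 0.04 and Gss with 0.11 ± 0.05, and neither was called.

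Snx10 rose at the probe set 1379275_at. It is a sorting nexin, a small protein that binds membrane lipids of endosomes. Values were 10.21, 10.52 and 10.75 in congenic rats (lowest, median, highest), against 9.69, 9.84 and 10.04 in NP rats. The lines were separated by a gap between congenic 2, the lowest of its line, and the highest NP animal. The means were 10.53 ± 0.20 in congenic and 9.87 ± 0.14 in NP rats (SD, n = 6 each), a difference of 0.66 ± 0.09 (SE, 1.58-fold, limma adjusted p = 0.00694). The brighter Snx10 probe set, 1383585_s_at, did not follow: it read 11.50, 11.66 and 12.09 in congenic rats, against 11.66, 11.83 and 12.04 in NP rats, with a difference of -0.13 ± 0.09 (limma adjusted p = 0.859). The Snx10 call therefore rests on 1 of its 2 probe sets. Among the 24 measured sorting nexins, each taken at its brightest probe set, 0 were called, and Snx27 alone (4.17%) had an unadjusted p under 0.05. Snx27 differed by -0.36 ± 0.15 at that probe set.

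Next to Snx10 in the measured gene order stands Hnrnpa2b1, a nuclear protein that binds RNA in splicing and transport, and it lies on the opposite strand. Its probe set 1378543_at read 8.40, 8.96 and 9.08 in congenic rats, against 9.23, 9.28 and 9.46 in NP rats, without overlap. The difference was -0.44 ± 0.10, which did not pass the test (limma adjusted p = 0.325). The 3 other Hnrnpa2b1 probe sets differed by -0.04 to -0.19 and overlapped between the lines. In the same stretch of the chromosome, Bpgm, which makes bisphosphoglycerate, a regulator of oxygen release in red cells, did not overlap between the lines at either probe set. The probe set 1388544_at read 12.09, 12.19 and 12.22 in congenic rats, against 11.96, 11.99 and 12.02 in NP rats. Its difference was 0.19 ± 0.04 (limma adjusted p = 0.243), and that of the other probe set was 0.21 ± 0.05 (adjusted p = 0.259).

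The promoters of these genes are shown because Snx10 and Hnrnpa2b1 are neighbours in the measured gene order with opposite signs at 1379275_at and 1378543_at. At the brighter Snx10 probe set and the other Hnrnpa2b1 probe sets the differences were all negative, so the opposite signs hold for those probe sets only. Bpgm is shown because it had the same direction and no overlap between the lines at both probe sets. They come from RefSeq on the build GRCr8, cover 250 bases before to 50 bases after the annotated gene start, and lie at chr4:81943073-81943372 (plus strand), chr4:81875837-81876136 (minus strand) and chr4:64107027-64107326 (plus strand). Capitals mark GGGCGG, the GC box letters, and CCAAT, written ATTGG where it reads on the other strand.
Snx10: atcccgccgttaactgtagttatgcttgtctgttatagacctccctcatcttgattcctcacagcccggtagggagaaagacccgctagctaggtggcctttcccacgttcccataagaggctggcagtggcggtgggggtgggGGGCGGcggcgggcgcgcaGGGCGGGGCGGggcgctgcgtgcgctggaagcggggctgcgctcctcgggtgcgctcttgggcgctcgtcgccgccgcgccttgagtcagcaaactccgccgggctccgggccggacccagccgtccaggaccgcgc
Hnrnpa2b1: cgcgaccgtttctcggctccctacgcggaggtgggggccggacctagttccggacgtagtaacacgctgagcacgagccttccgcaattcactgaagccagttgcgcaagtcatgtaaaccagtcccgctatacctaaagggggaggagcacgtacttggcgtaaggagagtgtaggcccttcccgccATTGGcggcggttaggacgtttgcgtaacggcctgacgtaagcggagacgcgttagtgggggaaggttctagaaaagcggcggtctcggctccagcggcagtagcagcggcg
Bpgm: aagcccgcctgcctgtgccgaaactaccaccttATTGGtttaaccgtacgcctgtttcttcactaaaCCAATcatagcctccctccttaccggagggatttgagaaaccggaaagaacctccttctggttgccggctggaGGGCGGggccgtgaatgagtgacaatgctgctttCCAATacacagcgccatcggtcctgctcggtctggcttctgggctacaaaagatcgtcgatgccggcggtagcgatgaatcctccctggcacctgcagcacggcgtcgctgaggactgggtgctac

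A script searched the 3 windows on both strands for the TATA box letters TATAAA, for the CCAAT box, for the GC box GGGCGG, for the E box letters CACGTG and for the cyclic AMP response element TGACGTCA. The Snx10 window holds GGGCGG 3 times, the last 2 matches sharing a base, and none of the other motifs. The Hnrnpa2b1 window holds CCAAT once, on the minus strand of the gene, and none of the others. The Bpgm window holds CCAAT 3 times, once on the minus strand, and GGGCGG once. Of 33469 rat promoters of 300 bases in the same table, 37.5% hold CCAAT, 33.1% the GC box, 14.2% the TATA box, 6.42% the E box and 1.83% the cyclic AMP response element. These matches are letters in a window and not binding data.

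Tpm3, a tropomyosin that lies along actin filaments, fell at 1 probe set of 10. The probe set 1371239_s_at read 7.52, 7.75 and 7.83 in congenic rats, against 7.94, 8.09 and 8.11 in NP rats, without overlap. These values are near 7.68, the limit set for a signal: the congenic mean was 7.73, and the lowest congenic animal lay below the limit. The difference was -0.33 ± 0.06 (1.26-fold lower), with a limma adjusted p of 0.0474. The remaining 9 Tpm3 probe sets, among them brighter ones, differed by -0.12 to 0.02 and none passed the test. The call was the weakest of the 10: it ended in 10 of the 12 fits that left out 1 animal, all but those without congenic 10 and NP 11, with adjusted p between 0.0587 and 0.169. It also ended without a filter on signal (adjusted p = 0.0650), with quantile normalization (0.147), with centring on array medians (0.109), with a trended robust prior (0.104) and with the animal as a replicate block (1.00). Of 20 measured tropomyosins and actin regulators, each at its brightest probe set, 0 were called. An unadjusted p under 0.05 was reached by 1 (5%), Capzb, a subunit of the actin capping protein, at 0.13 ± 0.05.

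The other 5 called probe sets carry no single gene name in the table used, so their identity was not analysed here. The probe set 1395714_at differed most of all 18625. It read 6.99, 7.22 and 7.51 in congenic rats, against 11.91, 12.09 and 12.25 in NP rats, a measured difference of -4.85 ± 0.08 (limma adjusted p = 9.68e-15). All congenic values lie below 7.68, the limit set for a signal on the mean over all 60 arrays, and set against that limit the probe set was at least 20.8-fold lower in congenic rats. The second was 1391305_at, with 6.56, 6.85 and 7.26 in congenic rats, against 9.98, 10.31 and 10.48 in NP rats, a measured difference of -3.37 ± 0.12 (adjusted p = 2.14e-10). Its congenic values also all lie below the limit, against which it was at least 5.98-fold lower.

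In the other direction, 1378742_at read 8.80, 9.10 and 9.21 in congenic rats, against 8.11, 8.29 and 8.56 in NP rats, a difference of 0.78 ± 0.08 (limma adjusted p = 4.32e-04). The values of 1378125_at were 8.97, 9.12 and 9.23 in congenic rats, against 8.66, 8.70 and 8.80 in NP rats, a difference of 0.40 ± 0.05 (adjusted p = 0.00814). The remaining 1, 1383058_at, averaged 9.80 ± 0.17 in congenic and 10.24 ± 0.06 in NP rats (SD, n = 6 each), a difference of -0.45 with a limma adjusted p of 0.0337, and was named after its values were seen. Its call ended in 10 of the 12 fits that left out 1 animal, all but those without congenic 1 and congenic 10, with an adjusted p of up to 0.139. The calls of the 8 probe sets other than this one and Tpm3 stayed in all 12 such fits.

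**Figure D2:**
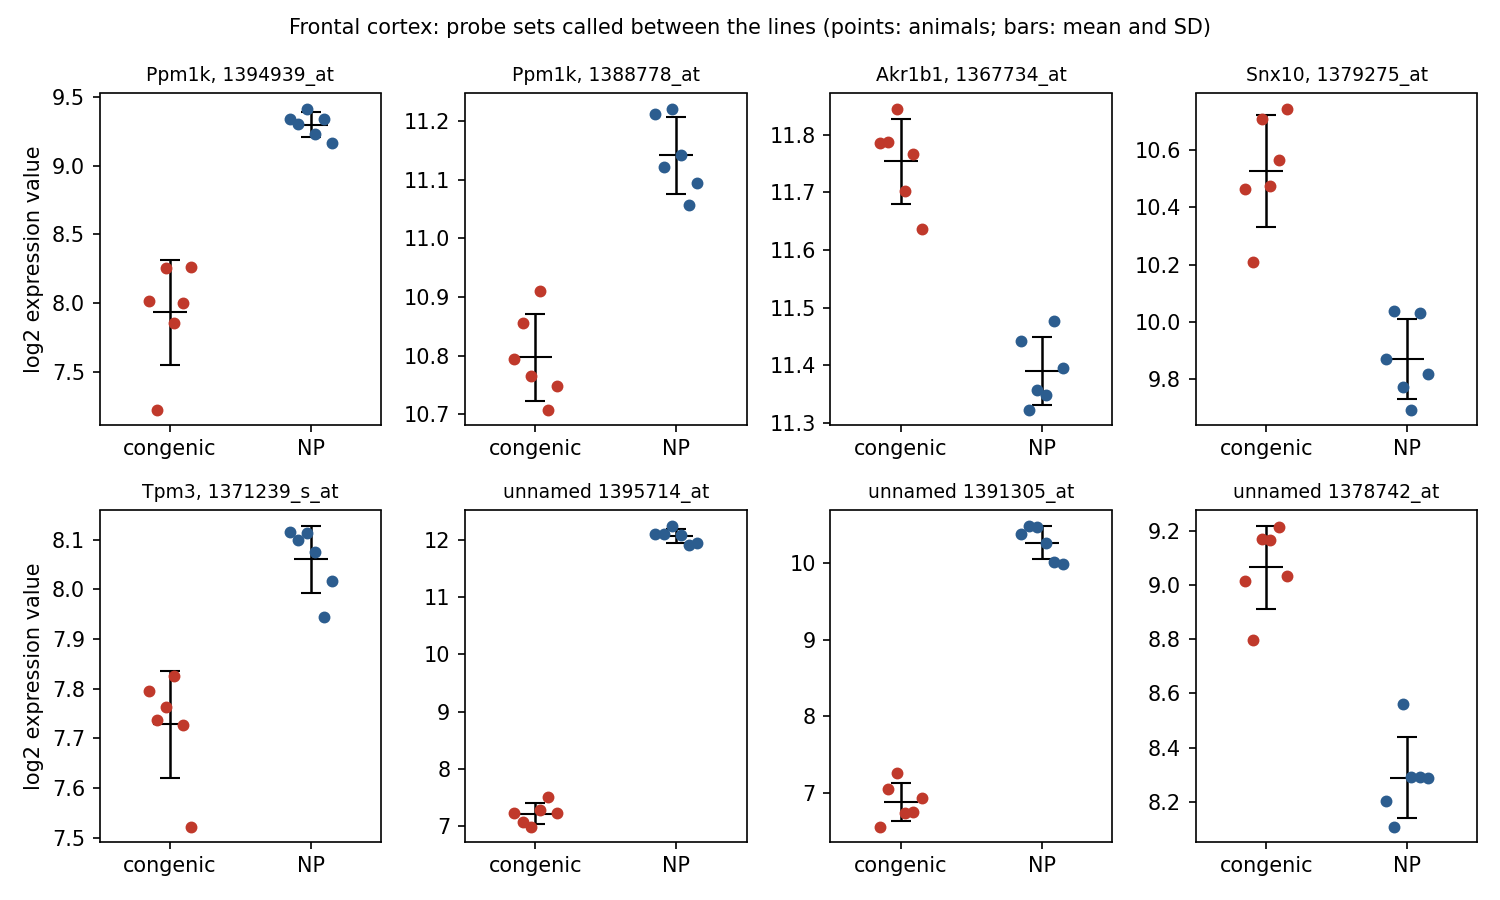
Log2 values of 8 called probe sets in each animal, congenic on the left and NP on the right of each panel, with the mean and SD of 6 animals as bars. The vertical axes differ between panels and do not start at 0. In every panel the 6 congenic animals lie apart from the 6 NP animals, by over 4 log2 units for 1395714_at and by under 0.2 units at the nearest animals for Tpm3.

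Chromosome 4 had the largest share of genes with an unadjusted p under 0.05 of any chromosome. Of 590 measured chromosome 4 genes, each at its brightest probe set, 51 had an unadjusted p under 0.05 (8.64%), 28 higher and 23 lower in congenic rats. On all other chromosomes together it was 456 of 9752 genes (4.68%), and the nearest single chromosome was chromosome 19 with 8.31% of 301 genes. These shares were not tested against each other. The lines did not overlap in 6 chromosome 4 genes (1.02%) and in 24 of the others (0.246%), against 0.289% of all named genes. The stretch from Akr1b1 to Ppm1k holds 98 measured genes in the order of the GRCr8 annotation. Since called genes set its ends, its counts are a description. In it 23 genes (23.5%) had an unadjusted p under 0.05, 9 higher and 14 lower, and 4 (4.08%) did not overlap. Among the other 492 chromosome 4 genes there were 28 (5.69%) and 2 (0.407%). By probe set, 4 of the 140 in the stretch were called, and 0 of the 666 outside it, of which 42 had an unadjusted p under 0.05. The median of the absolute differences was 0.063 log2 units inside and 0.048 outside.

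Within the stretch both directions were interleaved from gene to gene. Of the genes whose unadjusted p lay under 0.001, Dgki, a kinase that turns the lipid messenger diacylglycerol into phosphatidic acid, read 9.23, 9.35 and 9.39 in congenic rats, against 8.84, 8.98 and 9.24 in NP rats. The lines overlapped slightly, and the difference of 0.31 ± 0.06 did not pass the test (limma adjusted p = 0.218). In animals 1 to 8 alone the Dgki difference was 0.41 (adjusted p = 0.0327), and in animals 9 to 12 alone it was 0.11. Cntnap2, an adhesion protein that gathers potassium channels beside the nodes of myelinated axons, read 10.80, 11.01 and 11.10 in congenic rats, against 11.17, 11.25 and 11.36 in NP rats. Its difference was -0.27 ± 0.05 without overlap (adjusted p = 0.192), and its 2 other probe sets differed by -0.15 each. Stmp1, which encodes a short mitochondrial protein, pointed both ways, with 0.38 ± 0.08 and no overlap at 1377890_at but -0.17 ± 0.05 at the brighter 1388441_at. Pals2, a scaffold protein of the membrane-associated guanylate kinase family, had positive differences at all 5 probe sets, from 0.05 to 0.23, and 4 of them had an unadjusted p under 0.05.

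Npy lies in the same stretch. It encodes neuropeptide Y, a peptide of cortical interneurons that has long been studied for its effect on alcohol drinking in rats. It read 12.03, 12.13 and 12.22 in congenic rats, against 12.20, 12.27 and 12.37 in NP rats, so that the ranges just overlapped. The difference was -0.15 ± 0.05, with an unadjusted p of 0.00571, and Npy was not called. The other measured genes of the neuropeptide Y list, 2 of 3, did not reach an unadjusted p under 0.05.

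Further genes of the stretch, chosen with earlier results known, had the following values in frontal cortex, none of which passed the test. Zfp956, a zinc finger gene, differed by 0.26 ± 0.07, Pdia4, a folding enzyme of the endoplasmic reticulum, by 0.25 ± 0.08, and Repin1, a zinc finger protein, by 0.16 ± 0.05. Creb5, a factor of the cyclic AMP response element family, differed by -0.34 ± 0.10 at 1379629_at and by -0.16 and -0.06 at its other probe sets. Wdr91, an endosomal protein, differed by -0.18 ± 0.05. Fam180a was the exception among them, with 0.12 ± 0.15 and an unadjusted p of 0.462. It read 8.22, 8.83 and 9.12 in congenic rats, against 8.37, 8.54 and 9.19 in NP rats, and the lines overlapped widely.

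Magi1 lies on chromosome 4 outside the stretch, at place 379 of the 590. It encodes a scaffold protein of cell junctions and synapses. The probe set 1381871_at read 9.98, 10.39 and 10.78 in congenic rats, against 9.72, 9.79 and 9.92 in NP rats, without overlap. The difference was 0.58 ± 0.13 (1.49-fold), and it did not pass the test over all 12 arrays (limma adjusted p = 0.332). Without congenic 1, 2 and 10, the arrays least like the others of the region, it was 0.70 (adjusted p = 0.0243). A second Magi1 probe set differed by 0.27 ± 0.08, and 2 more by 0.11 ± 0.11 and 0.02 ± 0.06.

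**Figure D3:**
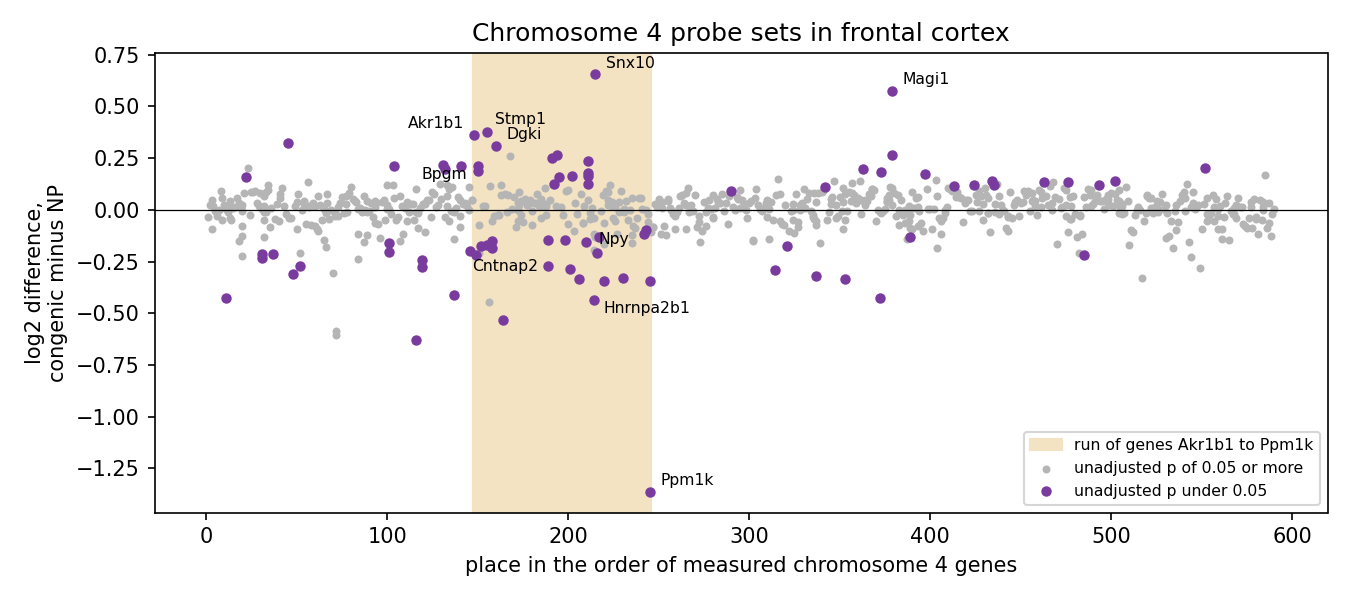
Log2 difference (congenic minus NP) of each chromosome 4 probe set against the place of its gene among the 590 measured chromosome 4 genes. Purple points have an unadjusted p under 0.05, and the shaded band is the run from Akr1b1 (place 148) to Ppm1k (place 245). Purple points above and below 0 stand close together in the band, and Magi1 stands apart at place 379.

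Off chromosome 4, Tpm3 was the only named gene called, and further genes had lines that did not overlap without passing the test. Sos1, which loads the small G protein Ras with GTP, had this pattern at both probe sets. The probe set 1385959_at read 9.10, 9.16 and 9.17 in congenic rats, against 8.85, 8.94 and 9.06 in NP rats, a difference of 0.21 ± 0.04 (limma adjusted p = 0.235). The other Sos1 probe set differed by 0.23 ± 0.05 (adjusted p = 0.246). Other genes with positive differences were Phf21a, a histone reader of a repressor complex (0.22 ± 0.06), Spred3, an inhibitor of Ras signalling (0.22 ± 0.06), and Mrpl40, a protein of the mitochondrial ribosome (0.21 ± 0.05). Each of these 3 genes has other probe sets that overlapped between the lines and differed by between -0.04 and 0.01. Sh3bp1 differed by 0.20 ± 0.05, the secreted C1qtnf6 by 0.19 ± 0.05 and Lrfn2, an adhesion protein of synapses, by 0.19 ± 0.06. The adjusted p of these genes lay between 0.235 and 0.692.

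Genes with negative differences and no overlap were led by Rbm5, an RNA-binding regulator of splicing. Its probe set 1398595_at read 7.29, 8.31 and 8.52 in congenic rats, against 8.57, 8.66 and 9.06 in NP rats, a difference of -0.65 ± 0.18 (limma adjusted p = 0.545). Congenic 2 and congenic 1 were the lowest, and the 2 brighter Rbm5 probe sets differed by -0.12 and -0.03. Tbl1xr1, a subunit of a nuclear receptor corepressor, had the smallest adjusted p of all probe sets not called (0.124). It read 7.80, 7.89 and 7.99 in congenic rats, against 8.09, 8.17 and 8.26 in NP rats, a difference of -0.28 ± 0.05, while its 3 other probe sets differed by -0.05 to 0.02. Pgr, the progesterone receptor, read 8.47, 8.69 and 8.80 in congenic rats, against 8.86, 8.97 and 9.02 in NP rats, a difference of -0.29 ± 0.06 (adjusted p = 0.213). At the probe set without overlap, Sltm, a nuclear RNA-binding protein, differed by -0.29 ± 0.06, and Strbp, another RNA-binding protein, by -0.27 ± 0.06. The other probe sets overlapped, with 0.0020 ± 0.053 at the brightest for Sltm and -0.65 ± 0.26 at the dimmer for Strbp. Ina, a filament protein of neurons, differed by -0.26 ± 0.06 at 1371148_s_at and by -0.09 ± 0.05, with overlap, at its brighter probe set. There followed the astrocyte water channel Aqp4 with -0.23 ± 0.07 at 1 of 3 probe sets and Tapbp, which loads peptides onto MHC molecules, with -0.17 ± 0.05. The brightest Aqp4 probe set differed by 0.02 ± 0.06.

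Among the families of neuronal signalling, few genes stood out and none was called. Of 16 measured receptors for dopamine, serotonin and noradrenaline, 4 (25%) had an unadjusted p under 0.05, all with congenic higher, against 3.49% of named genes in that direction. They were Drd2, Adra1d, Htr2c and Adra2c, and the median of the 16 was 0.016. Drd2, the dopamine receptor of indirect pathway medium spiny neurons, read 7.56, 7.67 and 7.87 in congenic rats, against 7.02, 7.37 and 7.68 in NP rats, a difference of 0.30 ± 0.10 (limma adjusted p = 0.651). These levels lie about the signal limit of 7.68, and Drd2 passed the filter through other regions, with a mean of 9.26 over all 60 arrays. Of the 16 receptors, 13 had a mean at or above the limit in both lines of frontal cortex, and 3 of these 13 (23.1%) had an unadjusted p under 0.05 with congenic higher, against 3.4% of the 10122 named genes treated alike. In animals 9 to 12 alone the Drd2 difference was -0.05, so it rested on animals 1 to 8, where it was 0.48. Htr2c, a serotonin receptor, read 7.91, 8.20 and 8.66 at 1369860_a_at in congenic rats, against 7.77, 7.88 and 8.02 in NP rats, with 0.36 ± 0.09 (adjusted p = 0.521), and its brighter probe set differed by 0.28 ± 0.11. Adra1d and Adra2c, receptors for noradrenaline, differed by 0.19 ± 0.07 and 0.24 ± 0.10.

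Of 12 measured AMPA, NMDA and kainate receptor subunits, 1 (8.33%) had an unadjusted p under 0.05, Grin2a, an NMDA receptor subunit. Its probe set 1380861_at read 9.50, 10.34 and 11.06 in congenic rats, against 10.66, 10.89 and 10.96 in NP rats, a difference of -0.58 ± 0.22 (limma adjusted p = 0.731). Congenic 1 and 2 were the lowest and congenic 10 the highest of all 12, and in animals 9 to 12 alone the difference was 0.08. The dimmer Grin2a probe set differed by -0.05 ± 0.10. Of 13 metabotropic glutamate receptors and transporters, Grm3 alone reached that level, at -0.31 ± 0.13, and animals 9 to 12 gave 0.03. Among 8 GABA-A receptor subunits it was Gabra4 alone (-0.15 ± 0.07), and among 9 genes of GABA synthesis, transport and GABA-B receptors it was Gabbr1 (-0.13 ± 0.06 at its brightest probe set).

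Of 30 synaptic vesicle and exocytosis genes, 7 (23.3%) had an unadjusted p under 0.05, in both directions, against 4.89% of all named genes, and the median was 0.013. Syt7 and Syt3, calcium sensors of release, differed by 0.21 ± 0.06 and, at the brighter probe set, 0.12 ± 0.05, and Vamp2, a fusion protein of vesicles, by 0.18 ± 0.08. Cplx2, which clamps the fusion complex, differed by -0.50 ± 0.22, Sv2a by -0.19 ± 0.08, Sv2b by -0.29 ± 0.13 and Sypl1 by -0.14 ± 0.06. None of the 7 was called, and the Syt7 mean in NP rats, 7.57, lay below the signal limit. Of 9 diacylglycerol kinases, 3 (33.3%) had an unadjusted p under 0.05, all with congenic higher, against 3.49% of all named genes in that direction. They were Dgki, Dgkg with 0.17 ± 0.06 and Dgkd with 0.13 ± 0.06. Of 23 calcium and sodium channel genes, 2 (8.7%) did so, Cacna2d1 with 0.32 ± 0.11 and Cacng2 with 0.13 ± 0.06. Cacna2d1, a channel subunit encoded on chromosome 4, read 11.00, 11.27 and 11.70 in congenic rats, against 10.86, 11.03 and 11.11 in NP rats.

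In several lists 0 genes had an unadjusted p under 0.05 at their brightest probe set. These were 31 potassium channel genes, 19 immediate early genes, 10 genes of the CRF and glucocorticoid stress axis, 8 cholinergic genes, 6 opioid peptides and receptors, 5 endocannabinoid genes and 5 neurotrophins and their receptors. Housekeeping lists behaved likewise. Of 49 oxidative phosphorylation genes 37 had a positive difference, with a median of 0.042 and a range of -0.060 to 0.10, while 6717 of the 10378 named genes were positive, with a median of 0.023. The 38 cytosolic ribosomal protein genes had a median of -0.018 and the 30 proteasome subunits one of 0.00070. Of 29 heat shock and ER chaperones 1 had an unadjusted p under 0.05 (Pdia4), of 19 hnRNP genes 1 (Hnrnpd, -0.20 ± 0.08) and of 15 CREB and ATF factors 1 (Creb1, -0.15 ± 0.06).

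Among cell types other than neurons, markers of meningeal fibroblasts and matrix (median difference -0.28) and of blood (-0.32) shifted most. No gene of these lists was called. In bulk tissue fewer cells of a type and less RNA per cell cannot be told apart. All 14 markers of meningeal fibroblasts and matrix had negative differences, from -0.61 to -0.11, and 0 of them had an unadjusted p under 0.05. Their mean level was 8.89 to 10.15 in congenic rats and 9.64 to 10.69 in NP rats, with congenic 1 the lowest and NP 12 the highest. All 14 markers of brain endothelium and pericytes were negative as well. An unadjusted p under 0.05 was reached by 2 of them (14.3%), Abcb1a, a drug efflux pump (-0.27 ± 0.12), and Cldn5, a tight junction protein (-0.19 ± 0.08). Of 3 blood genes, Alas2, a haem synthesis enzyme of red cells, differed by -0.53 ± 0.14 and Hbb, a haemoglobin chain, by -0.32 ± 0.12. Both had an unadjusted p under 0.05 (66.7% of the list). The mean blood level was 10.07 to 10.48 in congenic rats and 10.14 to 10.69 in NP rats. Of all 10378 named genes 6717 had a positive difference. An unadjusted p under 0.05 was reached by 4.89% of them, and by 1.41% with congenic lower. Markers of 1 cell type can rise and fall together on an array, so their signs are not independent.

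The exact permutation test over the 12 animals gave no marker list an adjusted p under 0.05 over the 11 lists. The smallest was 0.226, shared by blood (difference -0.25, raw exact p = 0.0368) and medium spiny neurons (0.067, raw exact p = 0.0411). In frontal cortex 13 of the 16 medium spiny markers had a positive difference, beside 6717 of the 10378 named genes. An unadjusted p under 0.05 was reached by 3 (18.8%, against 4.89% of all named genes), 2 of them positive, Gpr6 and Drd2. Both had a mean at or below the signal limit in NP frontal cortex, 7.68 for Gpr6 and 7.38 for Drd2, and passed the filter through other regions. Of the 14 remaining markers of the list, Foxp1, a transcription factor, alone had an unadjusted p under 0.05, with a negative difference. Across 7 lists, all but these, cortical excitatory neurons and astrocytes, the raw exact p lay between 0.106 and 0.738. The part of these cell types in any line difference was not tested. For the markers of cortical excitatory neurons the levels were 10.37 to 10.64 in congenic rats and 10.53 to 10.62 in NP rats (raw exact p = 0.206), and for those of astrocytes they were 12.36 to 12.51 in congenic rats and 12.31 to 12.50 in NP rats (raw exact p = 0.965). Among the genes of these lists, an unadjusted p under 0.05 was reached by Ccn2 (-0.18 ± 0.07) and Rasgrf2 (-0.20 ± 0.09) of 20 excitatory neuron markers, by Calb2 (0.17 ± 0.06) and Npy of 14 interneuron markers and by Aldh1l1 of 14 astrocyte markers. It was reached by 0 of 17 oligodendrocyte and myelin markers, 0 of 13 microglia markers, 0 of 8 hippocampal neuron markers and 0 of 5 choroid plexus markers. Choroid plexus markers were at 10.63 on the congenic 2 array and at 10.08 on the NP 5 array, and at 8.54 to 9.18 on the other 10.

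**Figure D4:**
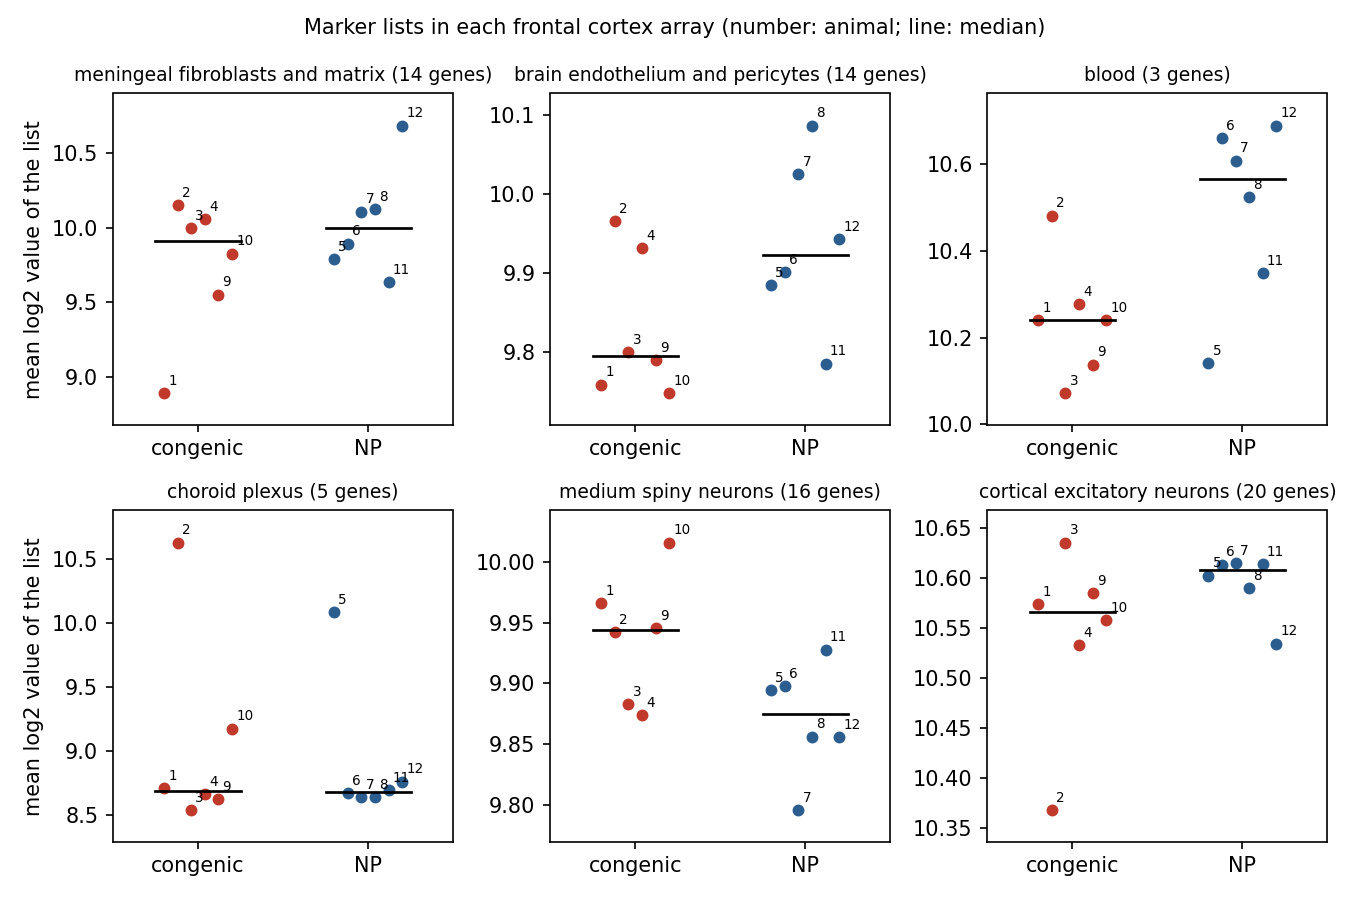
Mean log2 level of 6 marker lists on each frontal cortex array, congenic on the left and NP on the right of each panel, with the animal number beside each point and the median of 6 as a line. The vertical axes differ between panels and do not start at 0. The lines overlap in every panel, and congenic 2 and NP 5 stand far above the rest for choroid plexus.

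To ask whether a line difference was particular to frontal cortex, each animal's frontal value was set against the mean of its other 4 regions, and this contrast was compared between the lines. It called 0 of 18625 probe sets at an adjusted p under 0.05 (0%), while 1048 reached an unadjusted p under 0.05 (5.63%). The smallest adjusted p was 0.819. Without the 7 arrays that stood apart there were again 0 calls, with 687 at an unadjusted p under 0.05. In that version an animal with an array left out was set against its remaining regions only. The mix of regions therefore differed between animals and enters the contrast. No gene can therefore be called particular to frontal cortex from these arrays.

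The genes called in frontal cortex had these differences elsewhere. Ppm1k at 1394939_at differed by -1.36 in frontal cortex, against -1.04 in striatum, -1.24 in accumbens, -1.42 in amygdala and -1.03 in hippocampus. These regions hold the 7 arrays that stood apart, 2 each in accumbens and amygdala and 3 in hippocampus. Without them Ppm1k differed by -1.01 in accumbens, -1.39 in amygdala and -1.24 in hippocampus. Akr1b1 differed by 0.36 in frontal cortex, against 0.31 in striatum and between 0.15 and 0.18 in the other 3 regions, and the contrast of 0.16 ± 0.06 had an unadjusted p of 0.00964. Without the arrays that stood apart that contrast was 0.14 ± 0.06 (limma unadjusted p = 0.0491, adjusted p = 0.964). Snx10 differed by 0.66 in frontal cortex, against 0.63 in striatum, 0.48 in amygdala, 0.66 in hippocampus and -0.07 in accumbens. Without the arrays that stood apart, Snx10 differed by 0.55 in accumbens, 0.53 in amygdala and 0.48 in hippocampus. Tpm3 at 1371239_s_at differed by -0.33 in frontal cortex, against -0.36 in accumbens, -0.02 in striatum, -0.08 in amygdala and 0.14 in hippocampus, and the accumbens value was -0.10 without those arrays. The probe set 1395714_at differed by -4.85 in frontal cortex and by -4.20 to -5.09 in the other regions, and its congenic values in frontal cortex lie below the signal limit.

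The 6 genes with the smallest p in the contrast were Gsto2, Drd2, Tbl1xr1, Gpr6, Neto2 and Ankhd1, with an adjusted p of 0.819 each. Tbl1xr1 differed by -0.28 in frontal cortex, against -0.07 to 0.17 in the other regions, a contrast of -0.30 ± 0.07 (unadjusted p = 4.26e-04). Without the 7 arrays, and so with unlike mixes of regions between animals, that contrast was -0.35 ± 0.05 (unadjusted p = 9.07e-06, adjusted p = 0.169). Drd2 and Gpr6, a G protein-coupled receptor of striatal neurons, differed by 0.30 and 0.35 in frontal cortex, against -0.75 and -0.60 in amygdala, so that the amygdala weighs on their contrasts of 0.48 ± 0.11 and 0.49 ± 0.11. Without the 7 arrays, which include 2 of amygdala, these contrasts were 0.48 ± 0.23 and 0.45 ± 0.22, and the amygdala differences were -0.28 and -0.27. The unlike mixes of regions between animals weigh most on genes such as these 2, whose level differs much between regions. Gsto2, a glutathione transferase, had a contrast of 0.31 ± 0.07, Neto2, an auxiliary subunit of kainate receptors, of 0.26 ± 0.06, and Ankhd1, an ankyrin repeat protein, of -0.29 ± 0.07. The brighter Ankhd1 probe set had a contrast of -0.02 ± 0.07 and the dimmer Neto2 probe set one of 0.22 ± 0.10.

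**Figure D5:**
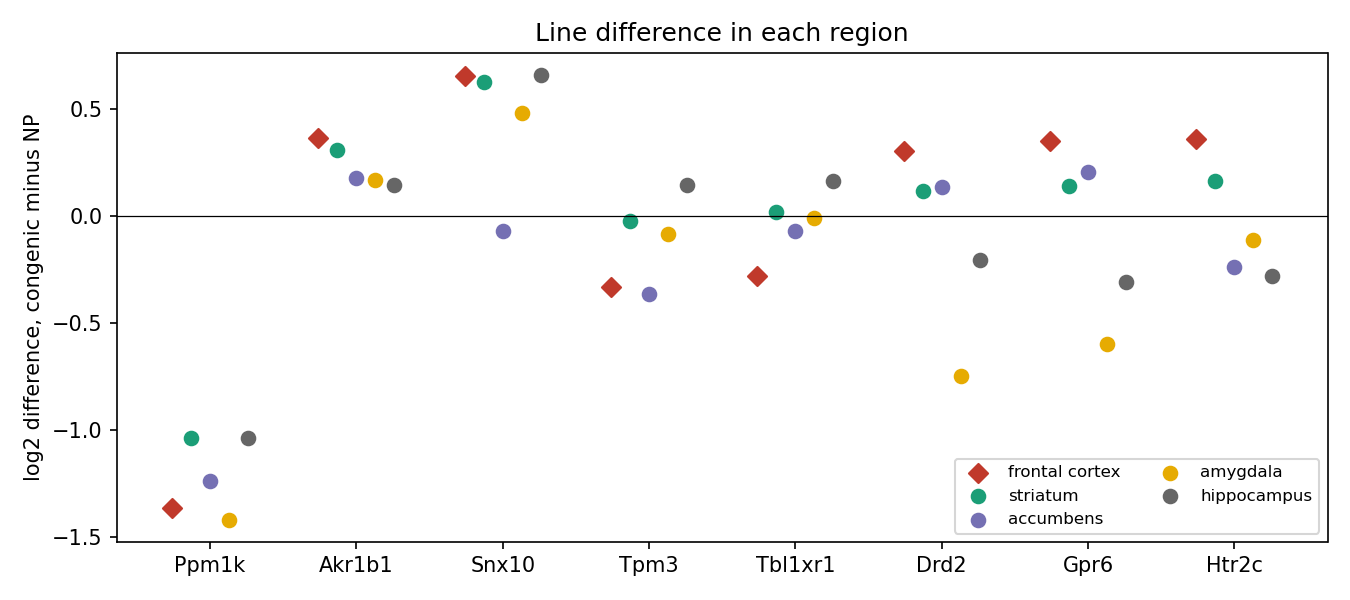
Log2 difference (congenic minus NP) of 8 genes in frontal cortex (diamonds) and in striatum, accumbens, amygdala and hippocampus (circles), each from 6 congenic and 6 NP arrays, those that stood apart included. Ppm1k lies between -1.42 and -1.03 in all 5 regions and Akr1b1 above 0 in all 5, while Tbl1xr1 lies at -0.28 in frontal cortex and between -0.07 and 0.17 elsewhere.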

How the data were processed

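Each rat's RNA was labelled and run on its own array, per the labels' protocols. Values were deposited on the log2 scale, and the authors' background correction and normalization are not given in the sources used here. Each of 31099 probe sets has 1 value per array. The 57 array controls were left out, and of the 31042 left, 18625 passed a filter on the mean over the 60 arrays (40th percentile, 7.68). Gene symbols came from the platform annotation, and 20758 probe sets matched by gene identifier to the GRCr8 gene table, which gave chromosome and gene order. Of the kept probe sets 14030 carry 1 symbol, for 10378 genes, and 4595 do not.

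The line difference was fitted with limma 3.58.1 in R 4.3.3 on the 12 frontal cortex arrays, 2-sided, with Benjamini-Hochberg adjustment over all 18625 probe sets. The contrast with other regions used 1 value per animal. Exact permutation tests covered all divisions of the 12 animals into 6 and 6. Lists were described by counts, with 1 probe set per gene, that of the highest mean. Tables used data.table (version 1.17.8), and figures Python 3.11.15 with matplotlib 3.10.9, numpy 2.4.6 and pandas 2.3.3. Promoter letters came from RefSeq.

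The members, the 39 gene lists (11 of them cell type markers) and the tests were chosen with earlier results of these data known. Named genes were all called genes, the 12 highest and 12 lowest with an unadjusted p under 0.05 and no overlap between the lines, the first gene and any called gene of each list, chromosome 4 genes with an unadjusted p under 0.001, genes of an earlier result over all regions, Npy, the first 6 genes of the contrast, and at most 2 unnamed probe sets per direction. Other genes of a list, such as those with an unadjusted p under 0.05, were named after their values were seen.

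An animal number marks the regions of 1 rat and pairs no congenic with an NP rat. On simulated arrays of 18625 probe sets the frontal cortex fit recovered 34 of 50 probe sets changed by 0.3 log2 units, 42 of 50 at 0.5, 48 of 50 at 1 and 50 of 50 at 2, with 4 false calls. All these changes were planted together, so far more probe sets were called than the 10 in the data. The adjustment is milder with more calls, so these shares overstate what the fit could recover here, above all for small changes. Alternatives covered the filter, normalization, prior, threshold, blocks and animals left out.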

Additional observations from a re-analysis of the deposited data

Results flagged for a closer look

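Single animals stood apart from the other 5 of their line in 8 of the 162 groups examined, by Dixon's test at the 95% level, and chance alone gives about 1 in 20. Congenic 10 was the animal in 4 of them. Its value was 7.522 for Tpm3 at 1371239_s_at, with the nearest congenic animal at 7.727, and 10.51 for Aqp4 at 1387397_at, with the nearest at 10.78. It was at 9.787 for Pdia4, with the nearest at 9.407, and at 8.556 for Lrfn2, with the nearest at 8.321. NP 7 had the highest value of its line for Hnrnpa2b1 at 1378543_at, 9.458, with the nearest NP animal at 9.31. For marker lists, choroid plexus stood at 10.63 in congenic 2, with the nearest congenic animal at 9.176, and at 10.08 in NP 5, with the nearest NP animal at 8.764. Cortical excitatory markers stood at 10.53 in NP 12, with the nearest NP animal at 10.59.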

How the results depend on the processing

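The 10 calls became 6 with a filter at the 60th percentile, 4 against a 1.2-fold difference and 2 in animals 9 to 12 only. A filter on more signal tests fewer probe sets, and the animals alone are fewer. With all 60 arrays and the animal as a replicate block there were 6 calls, and the animals' consensus correlation was -0.0158, so that the block added nothing from paired lines, which share no animal. Without a filter there were 10 calls, of which 9 were among the 10. Tpm3 was lost, and a probe set that the filter had left out was gained (-1.07, adjusted p = 1.49e-07). The gene of that probe set was not looked up. Quantile normalization, centring and a trended robust prior gave 9 each, all but Tpm3. Animals 1 to 8 alone gave 7, of which 5 were among the 10, with Dgki and Ccser2 (-0.61, adjusted p = 0.0233) added. The block of animals 1 to 8 and 9 to 12 gave 11, the 10 and Rbms3 (-0.39, adjusted p = 0.0416). Leaving out 1 animal gave 8 to 11. Without congenic 1, 2 and 10, an alternative chosen after seeing the data, there were 9, of which 7 were among the 10. Besides Magi1 it added Slc66a3 (-0.35, adjusted p = 0.0493) and ended Tpm3, 1378125_at and the Ppm1k probe set 1388778_at. The replicate block ended Tpm3, Snx10 (adjusted p = 1.00), 1383058_at (0.653) and the Ppm1k probe set 1388778_at. Its spread came from all 60 arrays, the 7 that stood apart included, so these losses do not measure the frontal cortex arrays alone. Without those 7, Snx10 was called in accumbens (limma adjusted p = 0.00223), amygdala (0.00513) and hippocampus (0.0297). In frontal cortex Snx10 was not called against a 1.2-fold difference or in animals 1 to 8 (adjusted p = 0.117). Without the 7 arrays that stood apart, also chosen after seeing the data, the 33 region differences compared moved by less than 1 SD. That SD was taken with the 7 arrays included, which widen it, so staying within it says little. Snx10 in accumbens went from -0.07 to 0.55 at an SD of 1.12. Among differences that changed sign was that of Drd2, from 0.14 to -0.17 in accumbens and from -0.20 to 0.11 in hippocampus. The contrast with other regions gave 0 calls in each of its 16 alternatives, with 520 to 1768 probe sets at an unadjusted p under 0.05, and no marker list passed after centring. The sign turned in animals 9 to 12 only for Drd2 (-0.054), Mbp (0.012), Grin2a (0.078), Grm3 (0.031) and Mgll (0.067), and without congenic 1, 2 and 10 for Prlr (-0.013). The cause was not tested. Of the results for single probe sets, 1672 kept direction and side of the threshold, 37 kept direction but lost the call and 2 gained one. The 1672 include probe sets not called in the main fit that stayed uncalled, so they do not measure how stable the calls are. The 37 losses could only come from called probe sets. The number of animals, and signal near the filter limit, bound what could be seen.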

Other observations

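Other genes that led their lists without passing the test were measured as follows. Zbtb20, a transcription factor of hippocampal neurons and astrocytes, read 6.31, 7.78 and 8.00 at 1394849_at in congenic rats, against 7.98, 8.10 and 8.48 in NP rats, a difference of -0.72 ± 0.24 (limma adjusted p = 0.665). Congenic 2 and 1 were the lowest, and the 5 other Zbtb20 probe sets had differences from -0.33 to -0.00088. Slc6a6, the taurine transporter encoded on chromosome 4, differed by -0.43 ± 0.12 at 1368778_at and by -0.01 ± 0.06 at its brighter probe set. Aldh1l1, an astrocyte folate enzyme encoded on chromosome 4, read 10.27, 10.42 and 10.50 in congenic rats, against 10.08, 10.21 and 10.31 in NP rats, a difference of 0.20 ± 0.05 (adjusted p = 0.545).

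Ggct, an enzyme of glutathione turnover in the chromosome 4 stretch, differed by -0.33 (unadjusted p = 0.00116), and was named after its values were seen. So were Mtpn, at -0.19, -0.15 and -0.05 at its 3 probe sets, and Gpnmb, a membrane glycoprotein, at -0.33.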
